A study of Sus scrofa with 8 samples.

Results

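The livers of pigs were examined for 10 genes of antigen presentation by major histocompatibility complex (MHC) class II, a complex that in swine is named swine leukocyte antigen (SLA). The genes were SLA-DRA, SLA-DRB1, SLA-DQA1, SLA-DQB1, SLA-DMA, SLA-DMB, SLA-DOA, SLA-DOB, CD74 and CIITA. They were chosen by symbol and not by a limit on measured values, but with earlier results of these data known. All 10 were found among the 18103 genes of the expression table. Hepatic polyadenylated RNA of male Landrace x Large White pigs was sequenced in 8 libraries. The initial state was represented by 4 pools from animals of 4 months of age. Steatosis was represented by 4 pools from animals of 6 months of age, which had eaten for 2 months a steatotic diet rich in saturated fat, fructose, cholesterol and cholate and poor in methionine and choline. Each pool joined the RNA of 2 pigs in equal amounts, and the animals sampled before and after the diet were the same. Initial livers were obtained as biopsies through laparotomy, and final livers once the pigs had been euthanised. Diet, age and mode of sampling therefore changed together and cannot be told apart, and pigs of 6 months of age on the control diet were not analysed here.

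MHC class II molecules are heterodimers of an alpha and a beta chain that display peptides of endocytosed proteins to CD4 T cells. In the liver they are carried mainly by Kupffer cells, dendritic cells, B cells and the sinusoidal endothelium. The chains are assembled with the invariant chain, which closes the peptide groove and guides the complex to endosomes, where cathepsins degrade it. The DM heterodimer then exchanges the remaining fragment for antigenic peptide, and the DO heterodimer restrains DM. Transcription of these genes requires the transactivator CIITA, which docks on RFX and NF-Y factors bound to their promoters.

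Expression was given as FPKM, the number of fragments scaled to the length of the transcript and to the mapped fragments of the library, a level per length that can be set side by side between genes. Of the 18103 genes, the 13175 with at least 0.3 FPKM in at least 4 libraries were tested, and all 10 class II genes were among them. A gene is said below to have risen or fallen where the adjusted p of limma was under 0.05, and to be differentially expressed where the adjusted p was under 0.01 and the log2 fold change was beyond 1. Fold changes are on the scale of log2(FPKM + 0.1), steatosis against initial state. Over all 13175 genes the median log2 fold change was 0.25. It was 0.01 after median ratio scaling, in which a library is divided by the median of its gene-wise ratios to the average library, and the number of risen and fallen genes of each list is given with this scaling as well. Initial pool 1 stood apart from the other libraries. The summed level of 6 skeletal muscle genes was 2646 FPKM in it and at most 19.2 FPKM in initial pools 2 to 4, and that of 7 stomach mucosa genes was 1498 and at most 28.9 FPKM. That of 5 adipose genes was 85.1 and at most 17.5 FPKM, and 54.1 to 63.9 FPKM in the steatosis pools. FABP4 alone made up most of the sum in steatosis, at 41.9 to 53.6 FPKM. ADIPOQ, also of these genes, was at 27.9 FPKM in initial pool 1 and at no more than 0.04 FPKM in the steatosis pools. The steatosis pools held 0.04 to 0.26 FPKM of the muscle genes and 6.00 to 6.50 FPKM of the stomach genes. The part of this material in the class II values was not tested, and counts without initial pool 1 are given where they differ. Since the liver was measured as a whole, fewer cells of a type and less RNA per cell cannot be told apart.

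The 8 SLA genes lie together on chromosome 7 of assembly Sscrofa11.1, in the class II region at chr7:24825037-25182665, which spans 357629 bases. From the lower coordinate upwards their order is SLA-DRA, SLA-DRB1, SLA-DQA1, SLA-DQB1, SLA-DOB, SLA-DMB, SLA-DMA and SLA-DOA. CD74 lies at chr2:151402210-151409924 and CIITA at chr3:32171706-32230775. By mean level over the 8 libraries, CD74 was the most abundant of the 10 genes, at rank 265 of 18103, followed by SLA-DRA (rank 327), SLA-DQA1 (485), SLA-DRB1 (673) and SLA-DQB1 (801). The DM chains were less abundant, at ranks 1884 (SLA-DMA) and 1959 (SLA-DMB). SLA-DOA (9174), CIITA (10713) and SLA-DOB (11705) were near or below the middle of the table.

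MHC class II genes were higher in steatosis. Of the 10 genes, 9 rose at an adjusted p under 0.05 and 0 fell, beside 26.7% and 2.28% of all tested genes, and 2 (SLA-DRA and SLA-DMB) were differentially expressed and higher, beside 6.01% of all tested genes. The exception was SLA-DOB, and the log2 fold changes of all 10 genes were above 0. The median log2 fold change of the 10 genes was 0.98, and it was 0.72 with median ratio scaling. The pools of the groups did not overlap in 8 of the 10 genes, all higher in steatosis, beside 29.6% of all tested genes. The summed level of the 10 genes was 531, 571, 585 and 533 FPKM in initial pools 1 to 4 and 1216, 1030, 824 and 1441 FPKM in steatosis pools 1 to 4. Among all tested genes 3519 rose and 300 fell, and with median ratio scaling 1614 rose and 1163 fell. The lists below are to be read beside the same shares of all tested genes, 26.7% risen and 2.28% fallen. With median ratio scaling these were 12.3% risen and 1163 of 13175 genes fallen. Counts of differentially expressed genes in the lists are to be read beside 6.01%, or 3.22% with median ratio scaling. With that scaling, 7 class II genes rose (12.3% of all tested genes), and SLA-DMB alone was differentially expressed (3.22%). With the pool number as a block, 9 genes rose (25.7%) and 2 were differentially expressed (5.96%). Without initial pool 1, 8 genes rose (23.7% of the genes then tested) and 2 were differentially expressed (6.03%), and these were SLA-DMB and SLA-DQB1, since the log2 fold change of SLA-DRA was then 0.99 and that of SLA-DQB1 was 1.02.

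**Figure D1:**
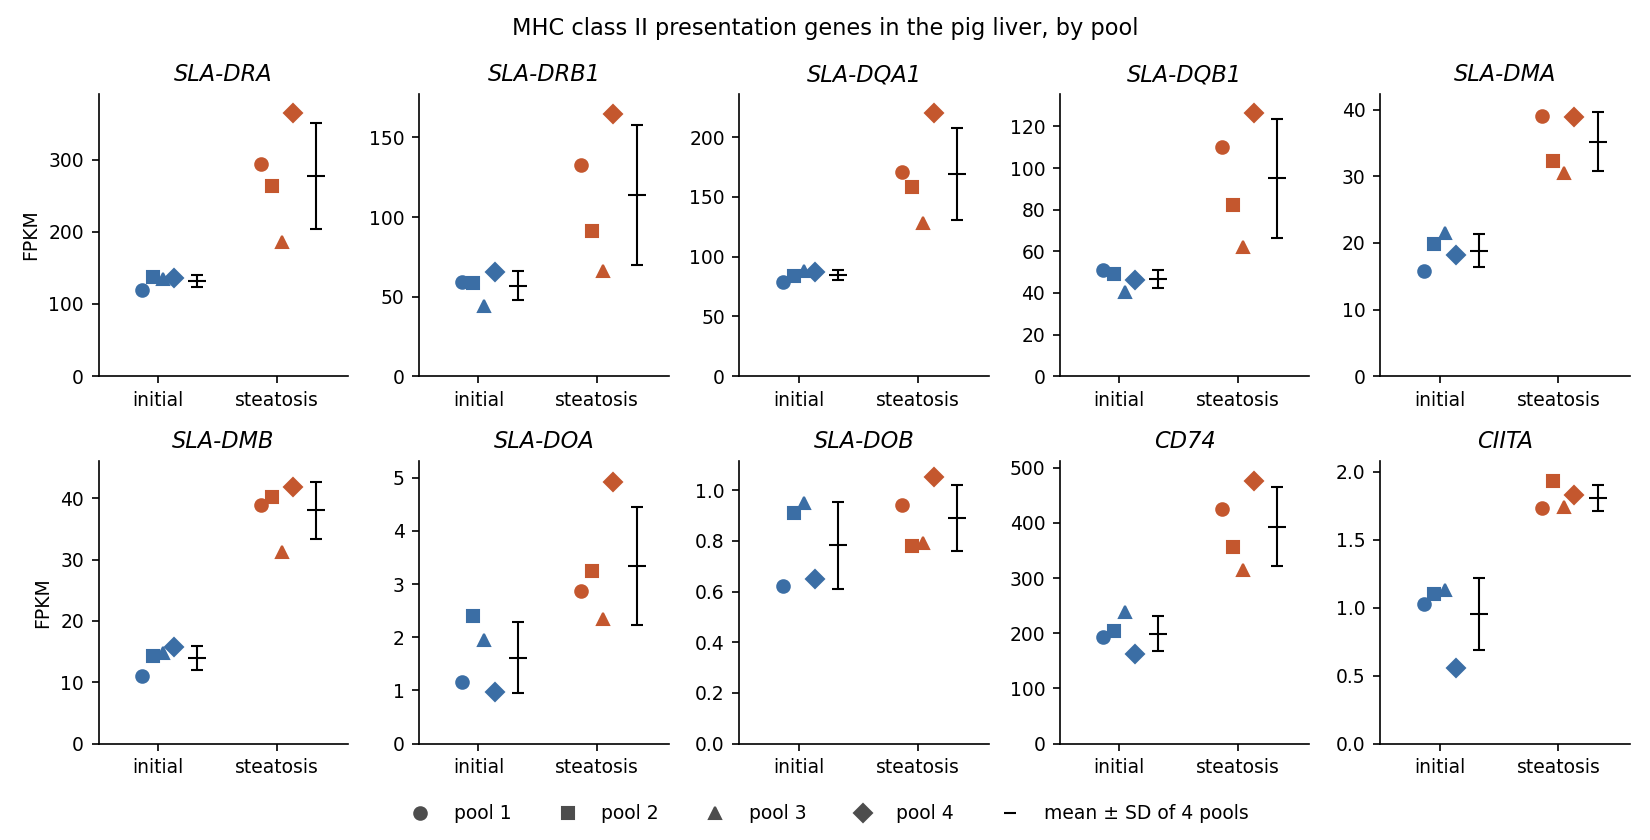
FPKM of each of the 10 class II genes (vertical axes, each starting at 0) in the 4 pools of the initial state (blue) and the 4 pools of steatosis (orange). Marker shape gives the pool number and the bars give mean ± SD. SLA-DOA and SLA-DOB are the genes whose groups overlap, and steatosis pool 4 is the highest of its group in 8 of the 10 genes.

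SLA-DRA encodes the alpha chain of the DR molecule (gene ID 100135040, chr7:24825037-24830650). Its level was 119, 137, 134 and 136 FPKM in initial pools 1 to 4 and 295, 264, 186 and 364 FPKM in steatosis pools 1 to 4. The lowest steatosis pool thus lay above the highest initial pool, and the spread was much wider in steatosis. The mean rose from 132 ± 8.44 to 277 ± 73.9 FPKM (SD, n = 4 pools each), a log2 fold change of 1.03 ± 0.18 (SE, limma adjusted p = 0.00257, 95% interval 0.64 to 1.43). The call as differentially expressed rested on single pools, since the log2 fold change was 0.99 without initial pool 1, 0.99 without steatosis pool 1 and 0.89 without steatosis pool 4, and it was 0.78 with median ratio scaling (limma adjusted p = 0.0167).

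SLA-DRB1 encodes the polymorphic beta chain that pairs with it (gene ID 100153386, chr7:24901386-24914016). Initial pools 1 to 4 held 59.4, 58.6, 44.0 and 65.3 FPKM, and steatosis pools 1 to 4 held 133, 91.4, 66.0 and 165 FPKM. The groups were separated by less than 1 FPKM, between initial pool 4 and steatosis pool 3. SLA-DRB1 rose from 56.8 ± 9.08 to 114 ± 43.8 FPKM (SD, n = 4 pools each), a log2 fold change of 0.93 ± 0.26 (limma adjusted p = 0.0238). The adjusted p was 0.11 with median ratio scaling, 0.0554 without initial pool 3, 0.0627 without steatosis pool 1 and 0.0564 without steatosis pool 4.

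The DQ molecule was represented by its alpha chain SLA-DQA1 (gene ID 100153387, chr7:24953472-24959313) and its beta chain SLA-DQB1 (gene ID 100037921, chr7:24969034-24977238). SLA-DQA1 was at 78.6, 84.2, 87.8 and 87.0 FPKM in the initial pools and at 171, 158, 128 and 220.4 FPKM in the steatosis pools. SLA-DQB1 was at 50.9, 49.1, 40.6 and 46.2 FPKM in the initial pools and at 110.2, 82.0, 61.9 and 126 FPKM in the steatosis pools. In both genes each steatosis pool was above each initial pool. SLA-DQA1 rose from 84.4 ± 4.17 to 169 ± 38.3 FPKM (log2 fold change 0.98 ± 0.15, limma adjusted p = 0.00129). SLA-DQB1 rose from 46.7 ± 4.49 to 95.1 ± 28.7 FPKM (log2 fold change 0.98 ± 0.20, limma adjusted p = 0.00616). Both remained just below the fold limit for differential expression, at 0.98 against the 1.03 of SLA-DRA.

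CD74, the invariant chain (gene ID 396660), was the most abundant transcript of the 10 genes in each group mean. It was measured at 193, 203, 238 and 162 FPKM in the initial pools and at 424, 356, 315 and 477 FPKM in the steatosis pools. No steatosis pool was as low as the highest initial pool. The mean rose from 199 ± 31.2 to 393 ± 71.9 FPKM (log2 fold change 0.97 ± 0.15, limma adjusted p = 0.00176). Its share of the summed level of the 10 genes was 30.5% to 40.7% in the initial pools and 33.1% to 38.2% in the steatosis pools. The 4 chains of DR and DQ took 52.4% to 62.8% and 53.7% to 60.8%, so that the makeup of the sum overlapped between groups while its size did not.

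SLA-DMA and SLA-DMB encode the chains of DM, the editor of peptide loading (gene IDs 445528 and 100135050, chr7:25133494-25137928 and chr7:25119278-25125089). SLA-DMA was at 15.8, 19.8, 21.6 and 18.2 FPKM in the initial pools and at 39.1, 32.4, 30.5 and 38.8 FPKM in the steatosis pools. SLA-DMB was at 11.08, 14.3, 14.8 and 15.7 FPKM in the initial pools and at 39.0, 40.2, 31.2 and 41.8 FPKM in the steatosis pools. The groups did not overlap in either gene, and the spread within steatosis was narrower than in the DR and DQ chains. SLA-DMB rose from 14.0 ± 2.02 to 38.0 ± 4.70 FPKM (log2 fold change 1.44 ± 0.14, limma adjusted p = 0.000113). It stayed differentially expressed with median ratio scaling (1.19, limma adjusted p = 0.000858) and without any single library (1.34 to 1.53). SLA-DMA rose from 18.9 ± 2.44 to 35.2 ± 4.42 FPKM (log2 fold change 0.90 ± 0.13, limma adjusted p = 0.000912).

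DO, the inhibitor of DM, was expressed at a low level. Of its chains SLA-DOA rose and SLA-DOB did not pass the test, and the difference between their changes was not tested. SLA-DOA (gene ID 100157996, chr7:25178866-25182665) was at 1.16, 2.39, 1.95 and 0.97 FPKM in the initial pools and at 2.87, 3.24, 2.35 and 4.91 FPKM in the steatosis pools. Steatosis pool 3 lay slightly below initial pool 2, so the groups overlapped. SLA-DOA rose from 1.62 ± 0.667 to 3.34 ± 1.11 FPKM (log2 fold change 1.04 ± 0.30, limma adjusted p = 0.0291), whereas an exact permutation test of mean FPKM, two-sided, gave p = 0.0571. The limma adjusted p was 0.0643 with median ratio scaling, and it was 0.0505 to 0.081 without initial pool 1 or 4 or without steatosis pool 1, 2 or 4. SLA-DOB (gene ID 100135049, chr7:25030435-25038196) was at 0.62, 0.91, 0.95 and 0.65 FPKM in the initial pools and at 0.94, 0.78, 0.79 and 1.05 FPKM in the steatosis pools. These ranges lay largely over each other. Its mean was 0.783 ± 0.172 FPKM in the initial state and 0.890 ± 0.129 FPKM in steatosis, and the log2 fold change of 0.18 ± 0.19 did not pass the test (limma adjusted p = 0.516, 95% interval -0.26 to 0.61), its sign being negative with median ratio scaling (-0.05).

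CIITA, the transactivator (gene ID 106509697), was at 1.03, 1.10, 1.13 and 0.56 FPKM in the initial pools and at 1.73, 1.93, 1.74 and 1.83 FPKM in the steatosis pools. The steatosis pools were close to each other, and initial pool 4 was the low one of its group. CIITA rose from 0.955 ± 0.267 to 1.81 ± 0.0932 FPKM (log2 fold change 0.90 ± 0.21, limma adjusted p = 0.0116). The same exact permutation test gave p = 0.0286, the smallest that 4 pools against 4 allow, for CIITA and for the 7 other genes without overlap.

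The table held 4 further genes that its annotation assigns to class II antigens, none of them a member by symbol. LOC106504372, annotated as like a DR-1 beta chain (chr7:25000257-25000539), was at 3.33, 0.76, 4.72 and 3.97 FPKM in the initial pools and at 5.62, 1.94, 7.70 and 14.4 FPKM in the steatosis pools. LOC100153139, annotated as like a DRB1-4 beta chain (chr7:24882212-24894226), was at 0.18, 1.07, 1.24 and 0.40 FPKM and at 1.09, 2.43, 2.29 and 0.57 FPKM. Their log2 fold changes of 1.13 ± 0.65 and 1.11 ± 0.56 did not pass the test (limma adjusted p = 0.214 and 0.163), but each steatosis pool exceeded the initial pool of the same number. Once the pool number was a block, limma gave an adjusted p of 0.00726 for LOC106504372 and of 0.0234 for LOC100153139. The new transcript BGI_novel_G000278 had a log2 fold change of 0.94 ± 0.55 (limma adjusted p = 0.218), and LOC100513097 was at 0 to 0.11 FPKM and was not tested. DRB and DQB genes are polymorphic and have near-identical copies, so reads may have been shared between these genes and SLA-DRB1 or SLA-DQB1, whose values are uncertain to that extent.

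Ratios within a library do not depend on scaling between libraries and were described without a test. SLA-DMB per SLA-DMA was 0.701, 0.719, 0.686 and 0.863 in initial pools 1 to 4 and 0.998, 1.24, 1.02 and 1.08 in steatosis pools 1 to 4, higher in each steatosis pool than in each initial pool. SLA-DOB per SLA-DOA was 0.534, 0.381, 0.487 and 0.670 in the initial pools and 0.328, 0.241, 0.336 and 0.214 in the steatosis pools, lower in each steatosis pool. The DO ratio rests on low values, with SLA-DOB at 0.62 to 1.05 FPKM. Both ratios thus separated the groups, but whether the chains moved in unequal proportion was not tested. How often ratios of other gene pairs separate the groups was not tested either. By contrast, SLA-DQB1 per SLA-DQA1 ranged from 0.463 to 0.648 in the initial state and from 0.482 to 0.645 in steatosis, and CD74 per SLA-DRA from 1.19 to 1.77 and from 1.31 to 1.69. SLA-DRB1 per SLA-DRA (0.327 to 0.498 and 0.346 to 0.452) and SLA-DQA1 per SLA-DRA (0.614 to 0.659 and 0.580 to 0.689) overlapped as well. The ratio of CIITA to SLA-DRA was also of similar range in both groups, at 0.00411 to 0.00864 and 0.00502 to 0.00935.

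**Figure D2:**
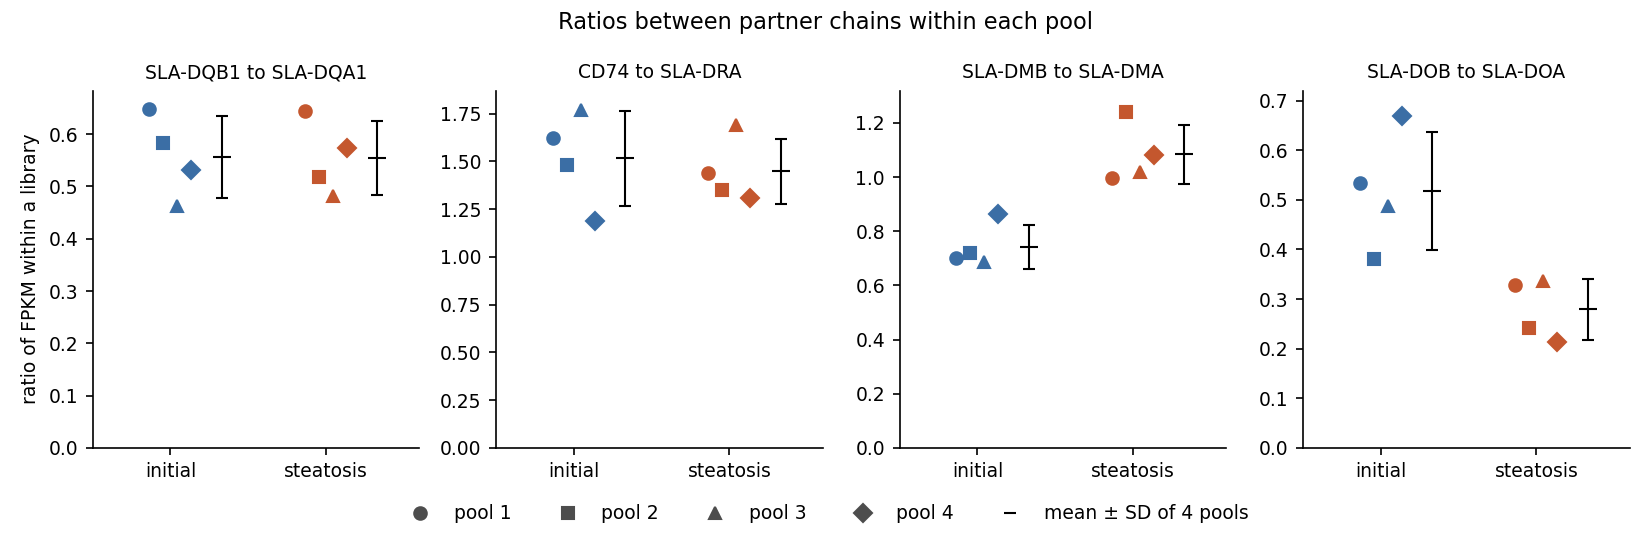
Ratio of FPKM between partner genes within each library (vertical axes, starting at 0) in the initial state (blue) and steatosis (orange), with marker shape for the pool number and mean ± SD. SLA-DMB per SLA-DMA is higher and SLA-DOB per SLA-DOA is lower in each steatosis pool, whereas the other ratios overlap.

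The steatosis pools differed in how much class II mRNA they held. Pool 4 was the highest steatosis pool in 8 of the 10 genes (26.1% of all tested genes) and pool 3 was the lowest in 8 of the 10 (28.4%). The mean deviation of the 10 genes from their group means was 0.09, -0.07, -0.36 and 0.34 log2 units in steatosis pools 1 to 4, beside -0.11, 0.14, 0.10 and -0.13 in initial pools 1 to 4. The highest steatosis pool held 1.96 times as much SLA-DRA as the lowest, 2.50 times as much SLA-DRB1, 1.72 times as much SLA-DQA1 and 2.04 times as much SLA-DQB1. This factor was 1.12 to 1.49 for these chains in the initial state. In steatosis it was closer to 1 for SLA-DMA (1.28), SLA-DMB (1.34), CD74 (1.52) and CIITA (1.12) than for the DR and DQ chains. Over the 4246 genes with a mean of at least 10 FPKM, the median factor was 1.35 in the initial state and 1.22 in steatosis.

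These deviations were shared among the chains. Over the 8 libraries, which include deviations that sum to 0 within each group, Pearson's r between the DR and DQ chains ranged from 0.83 to 0.97. It was highest for SLA-DRA with SLA-DQA1 and for SLA-DRB1 with SLA-DQB1 (0.97 each), that is, between the alpha chains and between the beta chains. CIITA went with the DR and DQ chains at -0.24 to 0.00 and with SLA-DOA at 0.65. The log2 ratio of each steatosis pool to the initial pool of the same number was 1.30, 0.94, 0.47 and 1.42 for SLA-DRA in pools 1 to 4 and 0.70, 0.76, 0.58 and 1.55 for CIITA. The high ratio of pool 4 went with a high steatosis value in SLA-DRA and with a low initial value in CIITA.

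Some single lysosomal and macrophage genes were ordered the other way in the same pools, but their lists as a whole were mixed. Of 16 macrophage genes, steatosis pool 4 was the highest of its group in 8 and the lowest in 5, and of 14 genes listed for antigen processing in 3 and 5. Of 9 tested T cell genes it was the highest in 2 and the lowest in 1, which was CD4. MARCO, a scavenger receptor of macrophages, was at 55.7, 47.0, 42.6 and 108 FPKM in steatosis pools 1 to 4. Steatosis pool 4 was the lowest of its group in CTSD, CTSS, CTSH, CD68, MSR1 and CD4, with deviations of -0.31, -0.32, -0.37, -0.61, -0.29 and -0.36 log2 units, and these genes were picked after their values had been seen. CD68 (gene ID 103158530), a lysosomal glycoprotein of macrophages, was at 36.8, 63.8, 58.1 and 29.3 FPKM in steatosis pools 1 to 4, and SLA-DRA per CD68 therefore ranged from 3.20 in pool 3 to 12.4 in pool 4. In the initial state this ratio was 9.89 to 16.3. The authors gave the level of CD68 under another gene ID, with a larger change. They listed the entry used here among the differentially expressed genes of the lysosome pathway. The other entry was not used here for the ratio or for the change of CD68. SLA-DRA per TYROBP, an adaptor of myeloid receptors, was 2.98 to 3.25 in the initial pools and 2.47, 2.2, 1.67 and 3.27 in the steatosis pools. Relative to PTPRC, the general leukocyte antigen CD45, SLA-DRA was 11 to 16.5 in the initial pools and 12.9 to 27.0 in the steatosis pools.

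**Figure D3:**
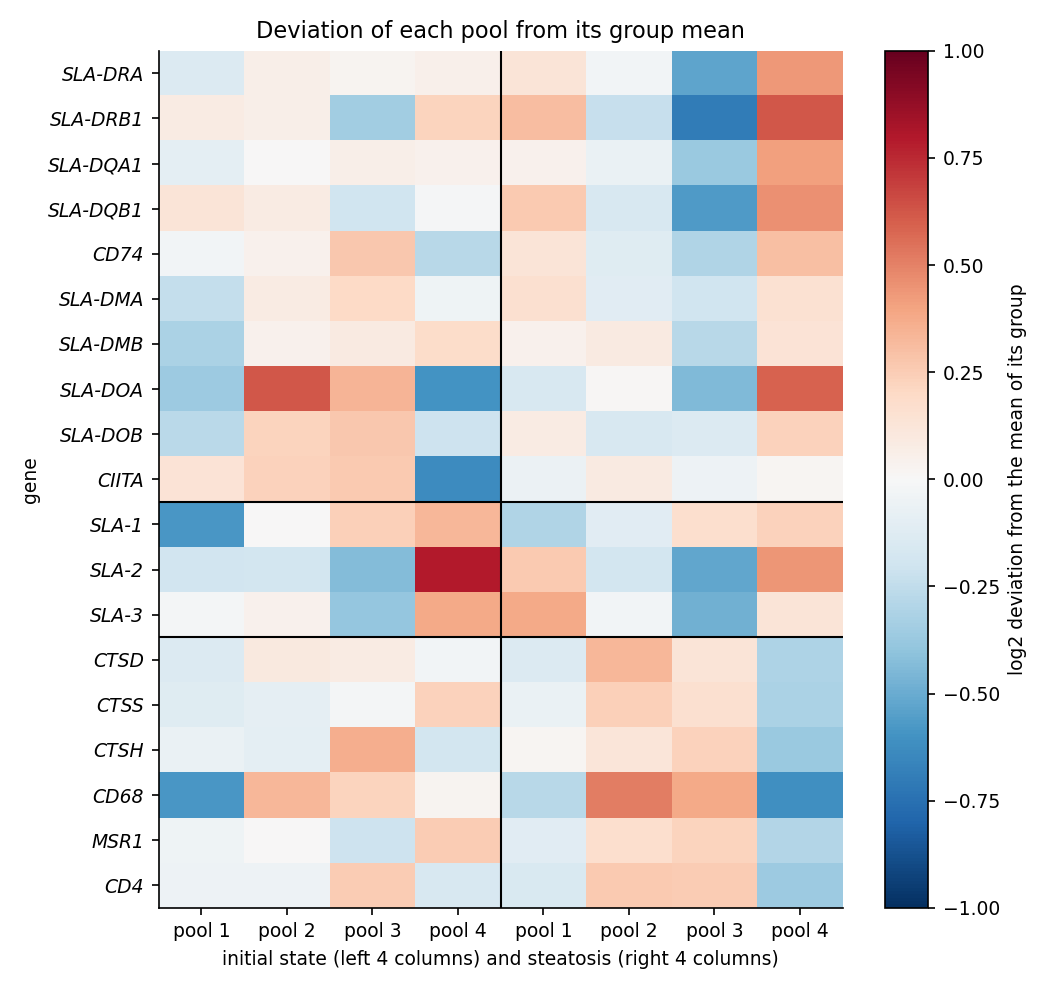
Deviation of each pool from the mean of its group on the scale of log2(FPKM + 0.1), by colour. The top block holds the 10 class II genes and the middle block MHC class I genes. The bottom block holds CTSD, CTSS, CTSH, CD68, MSR1 and CD4, chosen after their values were seen. Steatosis pool 4 is red or, for CIITA, near white in the top block and blue in the bottom block, and steatosis pool 3 is blue in the DR and DQ chains.

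Genes that act on CIITA and on class II promoters were described from a list of 16, of which 15 were tested. Of these, 10 rose and 0 fell (neither here nor in the other lists with 0 fallen genes was any gene lower at an unadjusted limma p under 0.05), with a median log2 fold change of 0.61, and 5 rose with median ratio scaling and 9 without initial pool 1. RFX5, the subunit that names the RFX complex, was at 3.36, 3.30, 3.64 and 3.16 FPKM in the initial pools and at 6.20, 5.63, 5.12 and 5.74 FPKM in the steatosis pools. It rose by a log2 fold change of 0.73 ± 0.11 (limma adjusted p = 0.00111), and its partner RFXAP rose by 0.76 (limma adjusted p = 0.00445). The third subunit, RFXANK, rose by 0.35 (limma adjusted p = 0.0355), a call that was lost with the pool number as a block (0.0556), with median ratio scaling (0.497) and without 7 of the 8 single libraries. NFYA and NFYB, of the NF-Y complex, had log2 fold changes of 0.10 and 0.03 that did not pass the test, and NFYC rose by 0.45 (limma adjusted p = 0.00641, and 0.164 with median ratio scaling). SPI1, the myeloid factor PU.1, was the 1 differentially expressed gene of the list. It was at 14.0, 16.1, 16.1 and 18.3 FPKM in the initial pools and at 47.4, 42.8, 45.3 and 47.1 FPKM in the steatosis pools (log2 fold change 1.5, limma adjusted p = 1.74e-05).

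Interferon gamma induces CIITA through its receptor. IFNG itself was at 0.08 to 0.42 FPKM in the initial pools and at 0.08 to 0.24 FPKM in the steatosis pools and was not tested. IFNGR1 and IFNGR2, the chains of the receptor, rose by log2 fold changes of 0.73 and 0.61 (limma adjusted p = 0.000548 and 0.00333). IRF1 and IRF8, interferon regulatory factors, rose by 0.53 and 0.86 (limma adjusted p = 0.0117 and 0.000923). With median ratio scaling the adjusted p was 0.187 for IRF1 and 0.0733 for IFNGR2.

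The list of antigen processing and class II turnover held 14 genes, of which ASGR2 is a gene of hepatocytes. Of the 14 genes, 9 rose and 0 fell, and 5 were differentially expressed (CTSD, CTSH, IFI30, CTSS and MARCH1). The median log2 fold change was 0.89. With median ratio scaling 8 rose, 1 fell (ASGR2, a receptor of hepatocytes, -0.46, limma adjusted p = 0.0165) and 4 were differentially expressed, without MARCH1 (0.88). CTSS, the cathepsin that trims the invariant chain in professional antigen-presenting cells, rose from 61.1 ± 7.04 to 165 ± 27.9 FPKM (SD, n = 4 pools each), a log2 fold change of 1.42 (limma adjusted p = 0.000123). IFI30, a lysosomal thiol reductase that unfolds antigens, was at 16.6, 18.1, 25.02 and 24.7 FPKM in the initial pools and at 66.5, 66.3, 61.0 and 74.4 FPKM in the steatosis pools. IFI30 rose by 1.69 on the log2 scale (limma adjusted p = 7.25e-05), and IFI30 per SLA-DRA was 0.132 to 0.186 in the initial pools and 0.204 to 0.328 in the steatosis pools, without overlap. The aspartic protease CTSD rose by 2.41 and the aminopeptidase CTSH by 1.98 on the log2 scale (limma adjusted p = 8.5e-06 and 4.66e-05). MARCH1, a ubiquitin ligase that removes class II from the cell surface, rose from between 1.29 and 1.85 FPKM to between 3.13 and 4.05 FPKM (1.13, limma adjusted p = 0.000877). CTSL, CTSB and LGMN rose by 0.77, 0.85 and 0.95 (limma adjusted p = 0.00503, 0.000534 and 0.00581, and 0.0638 for CTSL with median ratio scaling), whereas CTSF (0.23, limma adjusted p = 0.113) and CTSV (0.33, limma adjusted p = 0.0695, and 0.0484 with the pool number as a block) did not pass the test.

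Co-stimulatory and adhesion genes of antigen-presenting cells numbered 10, of which 9 were tested, 7 rose and 0 fell, with a median of 1.07. The 5 differentially expressed genes were CD86, ICOSLG, PDCD1LG2, TNFSF9 and ICAM1. Under the median ratio 6 rose and 4 were differentially expressed, without ICAM1 (0.82), and 4 were differentially expressed without initial pool 1. With 1 in place of 0.1 FPKM added before the logarithm, 2 were differentially expressed. TNFSF9 was at 0.27 to 0.32 FPKM in the initial pools and at 0.74 to 1.03 FPKM in the steatosis pools. It met the filter mainly through the steatosis pools, which favoured its call. CD86, a ligand of CD28, was at 2.18, 3.41, 2.33 and 4.11 FPKM in the initial pools and at 7.28, 11.3, 9.82 and 8.51 FPKM in the steatosis pools (log2 fold change 1.61, limma adjusted p = 0.000726). CD40 rose by 0.97 (limma adjusted p = 0.00205), and CD80, the other CD28 ligand, had a log2 fold change of 0.55 that did not pass the test (limma adjusted p = 0.123). Of the inhibitory ligands of PD-1, PDCD1LG2 rose by 1.40 and CD274 by 0.69 (limma adjusted p = 0.000753 and 0.02, and 0.105 for CD274 with median ratio scaling). On the side of the T cell, 9 of 11 genes were tested and 3 rose (CD4, LAG3 and FOXP3), near the 26.7% of all tested genes, while 0 fell. The number of risen genes was 2 with median ratio scaling and 2 without initial pool 1. FOXP3 was at 0.09 to 0.18 FPKM in the initial pools and at 0.30 to 0.72 FPKM in the steatosis pools (1.21, limma adjusted p = 0.0109). It met the filter through the steatosis pools alone, so its call as risen was favoured by the filter. LAG3, an inhibitory receptor for class II, rose by 0.92 (limma adjusted p = 0.0379), a call that was lost with median ratio scaling (0.112) and in the fit blocked by pool number (0.0696). CD4, the coreceptor of helper T cells for class II, was at 7.87, 7.89, 9.75 and 7.31 FPKM in the initial pools and at 16.1, 21.4, 21.2 and 13.9 FPKM in the steatosis pools (1.12, limma adjusted p = 0.00099). The CD3 genes gave log2 fold changes of 0.33 (CD3D), 0.28 (CD3E), -0.03 (CD3G) and 0.43 (CD247), none of which passed the test. Without steatosis pool 1, 2 or 4 the number of risen genes on this side was 1.

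MHC class I presentation, which displays peptides of cytosolic proteins on most cells, was compared because both classes are encoded in the SLA complex. Of 18 class I genes, 11 rose and 0 fell, with a median log2 fold change of 0.87 beside 0.98 for the class II genes, and the difference between these medians was not tested. With median ratio scaling 5 class I genes rose. SLA-1, SLA-2, SLA-3, SLA-8 and 1 of 2 rows of B2M were differentially expressed. That number was 0 with median ratio scaling and without steatosis pool 4, 2 without initial pool 1 or 2 or without steatosis pool 1 or 2, 3 without initial pool 3 and 8 without initial pool 4. SLA-2 was at 266, 268, 225 and 524 FPKM in the initial pools and at 885, 652, 514 and 1000.3 FPKM in the steatosis pools. NLRC5, the transactivator of class I genes and relative of CIITA, was at 1.92, 2.56, 2.56 and 4.65 FPKM in the initial pools and at 4.24, 4.82, 3.57 and 6.48 FPKM in the steatosis pools (0.73, limma adjusted p = 0.0627, and 0.0129 with the pool number as a block). Initial pool 4 was the highest initial pool in 12 of the 18 class I genes (12.3% of all tested genes) but in 2 of the 10 class II genes. Steatosis pool 3 was the lowest of its group in 13 of the 18 class I genes and in 8 of the 10 class II genes.

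Marker genes of cells that carry class II moved unequally between the groups. Of 6 pan-leukocyte genes, 5 rose and 0 fell (median 1.2), and their summed level was 105 to 148 FPKM in the initial pools and 283 to 336 FPKM in the steatosis pools. The number of risen genes was 4 with median ratio scaling, where PTPRC did not pass the test (limma adjusted p = 0.203), and 4 without initial pool 1. Of 16 macrophage genes, 10 rose and 0 fell (median 0.63), and their sum was 1032 to 1229 FPKM in the initial pools and 1434 to 1633 FPKM in the steatosis pools. MARCO, MSR1 and CD68 (the entry given above) were differentially expressed, with log2 fold changes of 3.33, 2.35 and 2.01. CD163 (0.32, limma adjusted p = 0.0889) and CD14 (-0.19, limma adjusted p = 0.186) did not pass the test. After scaling by the median ratio 7 macrophage genes rose and 1 fell, which was CD14 (-0.45, limma adjusted p = 0.0225). Of 12 dendritic cell genes, 10 were tested and 2 rose (BATF3 and TCF4), near the 26.7% of all tested genes. The median log2 fold change was 0.28, beside 0.25 over all tested genes. The sum of the 12 genes was 16.7 to 20.5 FPKM in the initial pools and 18.8 to 24.5 FPKM in the steatosis pools. The number of risen dendritic cell genes was 1 without steatosis pool 2 or 4 and 3 without initial pool 2 or steatosis pool 1. With median ratio scaling 1 rose, BATF3 did not pass the test (limma adjusted p = 0.0803), and 1 fell (IRF4, -0.76, limma adjusted p = 0.0423). CLEC9A was at 0 to 0.06 FPKM and FLT3 at 0.21 to 0.74 FPKM in all libraries. The part of these cells in the class II values was not tested.

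Of 9 B cell genes, 6 were tested, 2 fell (MS4A1 and CD79A) and 1 rose (BANK1), with a median log2 fold change of -0.36. Under the median ratio 3 fell, CD79B among them (-1.03, limma adjusted p = 0.0344), and 1 rose. MS4A1, which encodes CD20, fell from 0.82, 1.30, 2.28 and 1.14 FPKM in the initial pools to 0.55, 0.43, 0.58 and 0.43 FPKM in the steatosis pools (-1.23, limma adjusted p = 0.00937). PAX5, a transcription factor of B cells, was at 0.13 to 0.34 FPKM in the initial pools and at 0.04 to 0.10 FPKM in the steatosis pools, too low to be tested. CD79A, a subunit of the B cell receptor, fell by 1.08 on the log2 scale (limma adjusted p = 0.0331, and 0.0598 when blocked by pool number), and its call was lost without initial pool 2 or 3 or without steatosis pool 2 or 3. Of 8 endothelial genes 2 rose (PECAM1 and KDR), near the 26.7% of all tested genes, with a median log2 fold change of 0.34. The number of risen endothelial genes was 1 without initial pool 1 or without steatosis pool 2 or 3 and 3 without initial pool 4. Scaled by the median ratio, 1 rose and KDR did not pass the test (limma adjusted p = 0.246). Of 9 hepatocyte rows 3 rose (2 of TF and that of CYP2E1), also near the share of all tested genes. The median was 0.04, 1 fell (FGB), and 2 rose without initial pool 1. With median ratio scaling 0 rose and 2 fell (FGB and SERPINA1). ALB, the defining transcript of hepatocytes, was at 33168 FPKM or more in all 8 libraries.

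**Figure D4:**
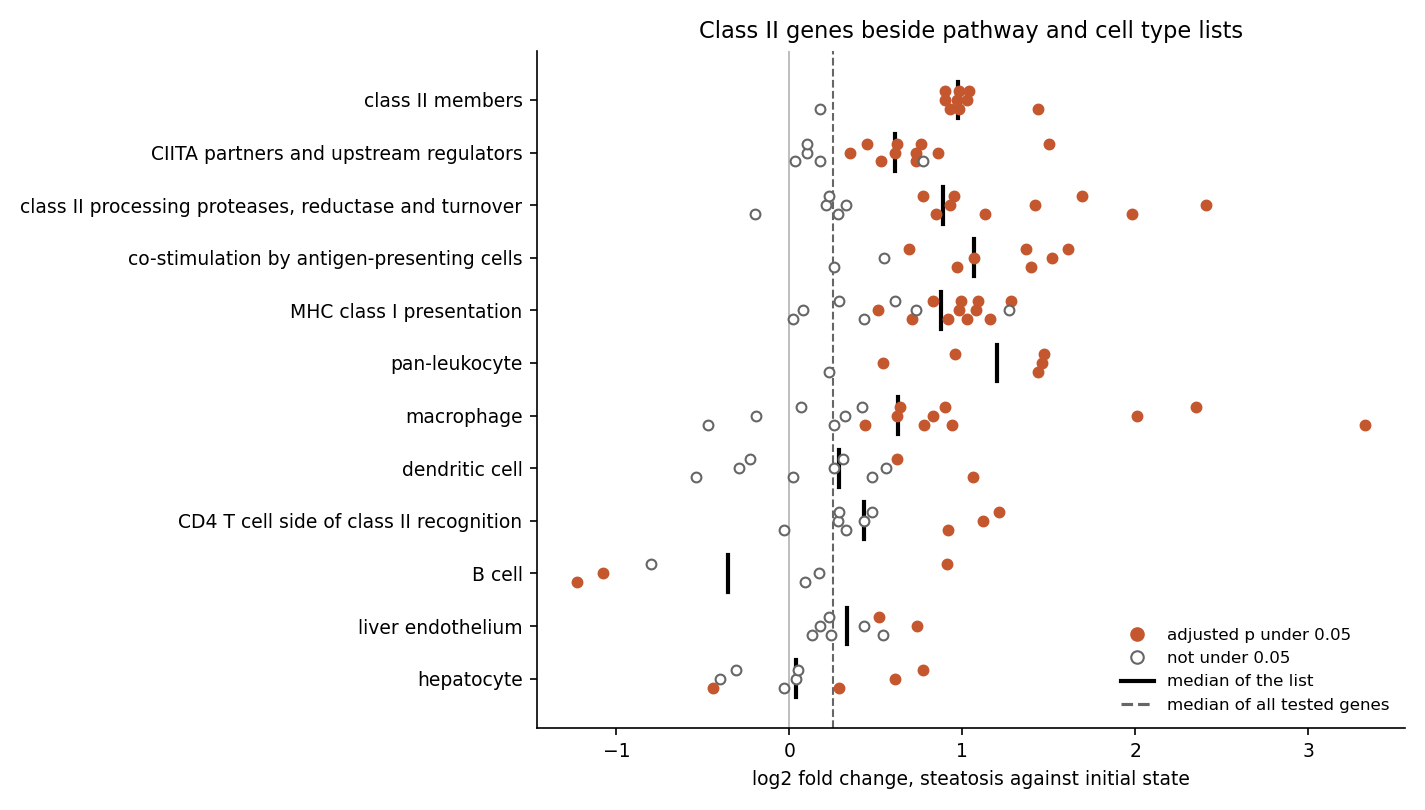
Log2 fold change (horizontal axis, steatosis against initial state) of each tested gene of the class II members and of 11 pathway and cell type lists. Filled points had an adjusted p under 0.05 in limma, black bars are the medians of the lists, and the dashed line is the median of all tested genes (0.25). Of the class II genes, 9 of 10 are filled and lie to the right of 0.8, and the B cell list has its median below 0.

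The genes whose deviations from the group means were most like the mean deviation of the class II genes were searched among 11325 others with a mean of at least 1 FPKM. The 5 closest by Pearson's r over the 8 libraries were POU2F2 (0.99), MAEA, BGI_novel_G000147 and SERPINE2 (0.97 each) and OAZ2 (0.96). These are the highest r of 11325 searched, and how high r would be by chance in such a search was not tested. POU2F2, an octamer-binding factor of lymphoid cells, was at 1.57, 1.83, 1.70 and 1.57 FPKM in the initial pools and at 1.69, 1.52, 1.25 and 2.04 FPKM in the steatosis pools. It followed the class II genes within each group but had a log2 fold change of -0.05 between groups (limma adjusted p = 0.83). SERPINE2, a secreted protease inhibitor, was at 0.92, 1.46, 1.13 and 0.81 FPKM in the initial pools and at 5.47, 3.12, 2.38 and 7.14 FPKM in the steatosis pools (1.87, limma adjusted p = 0.00278). MAEA and OAZ2 rose by 0.48 and 0.66 (limma adjusted p = 0.0182 and 0.00524, and 0.152 for MAEA with median ratio scaling), and the new transcript had a log2 fold change of 0.07 (limma adjusted p = 0.564).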

How the data were processed

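Hepatic RNA was sequenced on the DNBseq platform in 8 libraries of 2 pooled pigs each. Reads were filtered by the authors, mapped to Sus scrofa 11.1 with HISAT2 2.0.4, and quantified with Bowtie2 2.2.5 and RSEM 1.2.12. The values were deposited by the authors as FPKM for 17778 known genes and 325 new transcripts, without a stated scaling between libraries. Columns of the authors' own comparisons between pairs of libraries (fold changes, p and FDR values) were not used. Depth in reads was not analysed here, and the SD between pools is given as the precision.

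The 13175 genes that reached 0.3 FPKM in 4 or more libraries were fitted on log2(FPKM + 0.1) with limma 3.58.1 (R 4.3.3). The model held the group alone, eBayes used a mean-variance trend, and p-values were two-sided, adjusted by Benjamini-Hochberg over all tested genes. The fit was tested on simulated data. Mean FPKM of single genes was also tested by exact permutation, two-sided (SciPy 1.17.1). For median ratio scaling, a library is divided by the median of its gene-wise ratios to the average library. The other alternatives were 2 scalings, 2 filters, 2 pseudocounts, no trend, a wider limit, the pool number as a block and each library left out in turn.

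The reported fit was not paired. The pool numbers met the criterion for pairing, since deviations from the group means correlated at 0.16, 0.35, 0.32 and 0.25 between pools 1 to 4 of both groups over the 13175 genes, all over 0.1, and a blocked fit was an alternative. The labels do not state this pairing.

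The members and lists were chosen with earlier results of these data known. Named are all class II genes, at most 6 genes of each list in the listed order with its largest change, and the 5 genes most like the members. Outside this rule and after their values were seen, IRF1, IRF8, IFNG, IFNGR1, IFNGR2, CTSH, IFI30, LGMN, MARCH1, TNFSF9, ICAM1, LAG3, FOXP3, SLA-8, B2M, NLRC5, MSR1, TCF4, BANK1, KDR, CYP2E1, ASGR2 and IRF4 were named. List genes absent from the table by symbol were left out, and some genes counted in the lists are not reported here by name. Coordinates are RefSeq gene spans of Sscrofa11.1, matched by gene ID. Promoter and protein sequences were not analysed here.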

Additional observations from a re-analysis of the deposited data

Results flagged for a closer look

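In 178 groups of 4 pools of the genes named, ADIPOQ and FABP4 left out, 11 single pools lay far from the other 3 of their group by Dixon's criterion (the gap as a share of the whole range). Chance alone gives about 5% of groups, and 11 of 178 is close to that share. Among the class II genes these were SLA-DRA in initial pool 1 (119 FPKM) and the barely measured LOC100513097 in initial pool 3 (0.07 FPKM). Among class I genes it was SLA-2 in initial pool 4 (524 FPKM).

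Low values of this kind were those of TYROBP in initial pool 1 (36.7 FPKM), CTSB in initial pool 2 (377 FPKM), NFYA in steatosis pool 3 (4.15 FPKM) and BATF3 in steatosis pool 3 (1.84 FPKM). High values were those of CD3E in steatosis pool 1 (11.8 FPKM), TNFSF9 in initial pool 3 (0.32 FPKM), CD79B in initial pool 3 (2.5 FPKM) and ALB in initial pool 4 (71003 FPKM).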

How the results depend on the processing

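The count of differentially expressed class II genes depended on the choices. It was 2 as reported, 1 with a common upper quartile, with the median ratio and with the replicate block together with the median ratio, and 9 at an adjusted p of 0.05 with no fold limit. Leaving out 1 library gave 1 to 6, with 1 without steatosis pool 1 and without steatosis pool 4, 3 without initial pool 3, 4 without steatosis pool 2 and 6 without steatosis pool 3. The count of class II genes risen at an adjusted p under 0.05 was 9 as reported and 7 to 9 under all alternatives run. The median log2 fold change of 0.98 ranged from 0.85 to 1.13 without 1 library and from 0.72 to 0.99 under the other alternatives. SLA-DOB, which did not pass the test, changed sign to -0.04 with a common upper quartile, to -0.05 with the median ratio and to -0.05 with the replicate block and the median ratio. It did not pass the filter of 1 FPKM and has no value there. With the pool number as a replicate block the counts were 2 and 9, and apart from the calls given with the results it changed no call of a class II gene. Of 179 values of single class II genes under alternatives, 162 kept their direction and their side of the limits for differential expression, 8 came to pass them, 6 no longer passed them and 3 changed sign. With 4 pools a group, changes near the fold limit cannot be placed firmly on either side of it.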
